A study of Mus musculus with 12 samples.

Results

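Muscle RNA of tumour-bearing mice was compared with that of tumour-free mice, both given vehicle, in 8 of the 12 libraries of the series. All genes with a mean level of at least 0.5 FPKM (a read level scaled for gene length and library depth) over these 8 libraries entered the comparison, 12716 of 54532 genes listed. The tissue was gastrocnemius, a calf muscle. The mice were female ICR SCID animals, a strain that lacks mature T and B cells. The tumour-free group (NTV, n = 4) carried no tumour and received vehicle. The tumour-bearing group (TV, n = 4) bore HT1080 cells, an established line from a human fibrosarcoma, grown as a tumour under the skin, and was likewise given vehicle. Dosing in the series lasted 19 days. A further group with the tumour and the RET inhibitor selpercatinib (30 mg/kg/day, n = 4) enters here only through the spread of each gene. Libraries are stated to be biological replicates and are named by the numbers of their titles, NTV replicates 2, 3, 5 and 6 and TV replicates 3, 4, 6 and 8. The labels used here give neither the time of day at sampling nor muscle or body weights, so loss of muscle was not measured.

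Cachexia is the wasting of muscle and fat that accompanies many tumours. In wasting muscle, breakdown through the ubiquitin-proteasome system and autophagy exceeds protein synthesis. Glucocorticoids, cytokines that act through STAT3 and NF-kB, and ligands of the myostatin and activin family are known drivers, and FoxO factors switch on many of the breakdown genes. RNA of whole muscle comes mostly from its multinucleate fibres, with smaller parts from connective tissue, vessels, nerve and fat.

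Each library held 14939830 to 23580603 reads assigned to genes, and both extremes were TV libraries, replicate 8 the lowest and replicate 3 the highest. Levels below are FPKM, listed in the order of the replicate numbers above or as mean ± SD (n = 4 in each). Each change is the TV minus NTV difference in log2(FPKM + 0.5), with its SE from limma. Genes count as called where the Benjamini-Hochberg adjusted p over the 12716 genes was under 0.05. The added 0.5 understates the change of weak genes. On the first principal component, with 45.5% of the variance, NTV libraries lay between -34.3 and -22.8 and TV libraries between 16.0 and 44.0. Of the 8 fibre markers checked, 7 stood at 2165 FPKM or more in all 8 libraries, while Tnnc2, fast troponin C, was listed at no more than 1.92 FPKM. Markers of T cells stood at no more than 0.0491 FPKM summed over 4 genes.

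Of the 12716 genes, 3275 (25.8%) were called, 1783 (14.0%) higher and 1492 (11.7%) lower in TV. When libraries were instead scaled to equal sums that leave out the mitochondrial genes and the top 50 by level, 1179 were higher and 2064 lower, so the balance of rises and falls depends on the scale. Changes of at least 2-fold were called for 565 genes (4.44%), 294 up and 271 down, and of at least 4-fold for 33 up and 30 down. For 27.3% of genes the 4 libraries of TV all lay on 1 side of those of NTV. Calls held whichever of the 8 libraries was left out for 1818 genes (14.3%). The median log2 change of all genes was 0.01, and 80% of genes lay between -0.54 and 0.57. The TV libraries differed more among themselves, with a larger log2 SD in TV than in NTV for 64.5% of genes. Replicate 3 was the TV library farthest from NTV for 156 of the 294 genes that rose at least 2-fold (53.1%), and replicate 6 was the nearest for 148 (50.3%). Among the 271 genes that fell at least 2-fold, replicate 3 was again the farthest most often, for 130 (48.0%), while replicate 8 was the nearest for 122 (45.0%) and replicate 6 for 80 (29.5%).

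**Figure D1:**
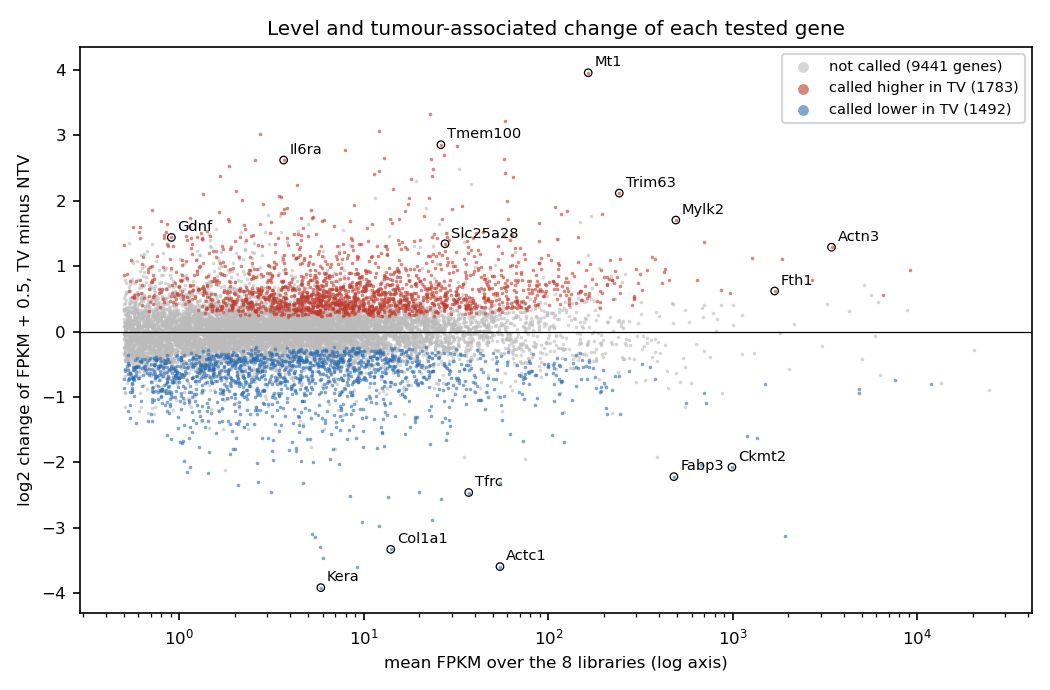
Each point is 1 of 12716 tested genes, with its mean FPKM over the 8 libraries on a log axis and its log2 change of FPKM + 0.5 (TV minus NTV). Red and blue points are the 1783 genes called higher and the 1492 called lower; rises and falls occur at all levels, from Gdnf near 1 FPKM to Actn3 above 1000 FPKM.

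The largest rise was that of Mt1, a metallothionein that binds zinc and copper and is induced by metals and glucocorticoids. Its levels were 11.3, 36.6, 27 and 7.69 FPKM in NTV and 563, 278, 152 and 241 FPKM in TV. Every TV library exceeded the highest NTV library several-fold (3.96 ± 0.68 on the log2 scale, adjusted p = 0.00261). Mt2, its neighbour on chromosome 8, stood at 0.745, 7.3, 5.81 and 0.70 FPKM in NTV and 91, 52.6, 8.54 and 16.8 FPKM in TV. The TV libraries again lay above all NTV libraries, with replicate 3 highest and replicate 6 close to NTV (3.33 ± 0.89 on the log2 scale, adjusted p = 0.0183). Mt2 missed the threshold when NTV replicate 2 or 6, or TV replicate 3 or 4, was dropped (adjusted p up to 0.0542) and with voom on recovered reads (0.0585). Mt1 and Mt2 were the only 2 of 19 tested metallothionein and zinc transporter genes that were called, and the median of the list was -0.03.

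The metal-response element, the site of the zinc sensor MTF1, gives both metallothionein promoters their known metal response. Its core was searched as TGCACNC and TGCGCNC on both strands in the 250 bases before each start site in RefSeq (GRCm38). It matched 1 time before Mt1 and 3 times before Mt2, and in 21.4% of all 32817 promoters of that table, so a match is common. For each gene shown, the start site nearest to the start of the gene in the deposited data was used. Bases after that site were not searched, so any elements there are not in these counts. The 120 bases before each start are shown because these 2 genes rose most, with matches in capitals. For Mt1 they are chr8:94178969-94179088 on the plus strand, and for Mt2 chr8:94172498-94172617 on the plus strand. The third sequence belongs to Ciart, a repressor in the circadian clock described further down, at chr3:95882229-95882348 on the minus strand. There the capitals mark CACGTG, the E-box bound by the clock activators CLOCK and BMAL1, which reads the same on both strands and is found in 6.02% of all promoters.
Mt1: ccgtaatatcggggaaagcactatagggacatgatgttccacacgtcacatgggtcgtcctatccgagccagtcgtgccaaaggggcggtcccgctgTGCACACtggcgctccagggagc
Mt2: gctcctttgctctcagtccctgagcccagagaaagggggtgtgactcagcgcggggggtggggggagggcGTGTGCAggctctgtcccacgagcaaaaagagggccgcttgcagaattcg
Ciart: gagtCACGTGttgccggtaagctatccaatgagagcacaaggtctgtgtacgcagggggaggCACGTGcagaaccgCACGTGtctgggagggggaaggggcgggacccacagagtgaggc
The match before Mt1 begins 23 bases before the start, and that shown before Mt2 50 bases before. The 3 E-boxes of Ciart begin 116, 58 and 44 bases before the start. Of 14 clock genes with a promoter in the table, 4 held an E-box (28.6%), against 9.02% of all 8163 tested genes with one. Cry2 and Rora, clock genes that rose and are described below, held 0. The share was larger in the lists of Krüppel-like factors (44.4%) and lysosomal genes (32.3%). A match is a sequence, and binding was not measured.

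Other large rises included several secreted and signalling proteins. Serpina3n, a secreted inhibitor of serine proteases, stood at 1.25, 0.809, 1.94 and 0.883 FPKM in NTV and 30.3, 16.4, 3.01 and 8.76 FPKM in TV. It was high in replicates 3 and 4 and only just above NTV in replicate 6 (2.77 ± 0.58 on the log2 scale, adjusted p = 0.00621). Cxcl13, a chemokine that attracts B cells, stood at 0.191, 0.156, 0.0861 and 0.562 FPKM in NTV and 9.56, 5.89, 1.45 and 2.69 FPKM in TV and rose as well (2.62 ± 0.44 on the log2 scale, adjusted p = 0.00241). Chac1, which degrades glutathione and responds to amino acid shortage, rose from 19.2 ± 4.96 to 109 ± 56.7 FPKM (2.36 ± 0.49 on the log2 scale, adjusted p = 0.00607). Tmem100, a membrane protein downstream of BMP receptors, was between 34.3 and 66.1 FPKM in TV and at most 8.33 FPKM in NTV (2.86 ± 0.45). Ctxn3, a small membrane protein, rose by 3.06 ± 0.58 and Maff, a small MAF factor of the bZIP class, by 2.45 ± 0.50. Cep85l rose from 5.5 ± 0.852 to 41 ± 21.3 FPKM (2.65 ± 0.38), and its gene spans Pln, which encodes phospholamban, on the other strand. As counting by strand is not stated, reads of such overlapping genes cannot be told apart.

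The largest falls were in connective tissue genes, in a cardiac actin and in iron uptake. Kera, the tendon and corneal proteoglycan keratocan, stood at 5.67, 10.7, 9.29 and 20.1 FPKM in NTV and 0.054, 0.123, 0.498 and 0.284 FPKM in TV. No TV library reached 0.5 FPKM and no NTV library was under 5 FPKM (-3.92 ± 0.47 on the log2 scale, adjusted p = 0.000874). Actc1, cardiac alpha-actin, stood at 121, 61.9, 63 and 157 FPKM in NTV and 2.31, 6.12, 12.5 and 14.2 FPKM in TV, with the groups far apart (-3.59 ± 0.62 on the log2 scale, adjusted p = 0.00263). Tfrc, the transferrin receptor, stood at 58, 60.9, 71.3 and 61.3 FPKM in NTV and 8.86, 11.7, 14.8 and 9.46 FPKM in TV. The libraries of each group were close to each other and the groups were far apart (-2.46 ± 0.16 on the log2 scale, adjusted p = 3.03e-05). BC048679 fell by 3.47 ± 0.57 and Mettl21e, a muscle methyltransferase, from 14.5 ± 2.67 to 2.31 ± 1.16 FPKM (-2.52 ± 0.35). Bdh1, which oxidises the ketone body 3-hydroxybutyrate, fell from 22.5 ± 3.27 to 4.51 ± 3.47 FPKM (-2.53 ± 0.64 on the log2 scale, adjusted p = 0.0146). Nrep, a protein linked to regenerating nerve and TGF-beta, fell by 2.89 ± 0.59.

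**Figure D2:**
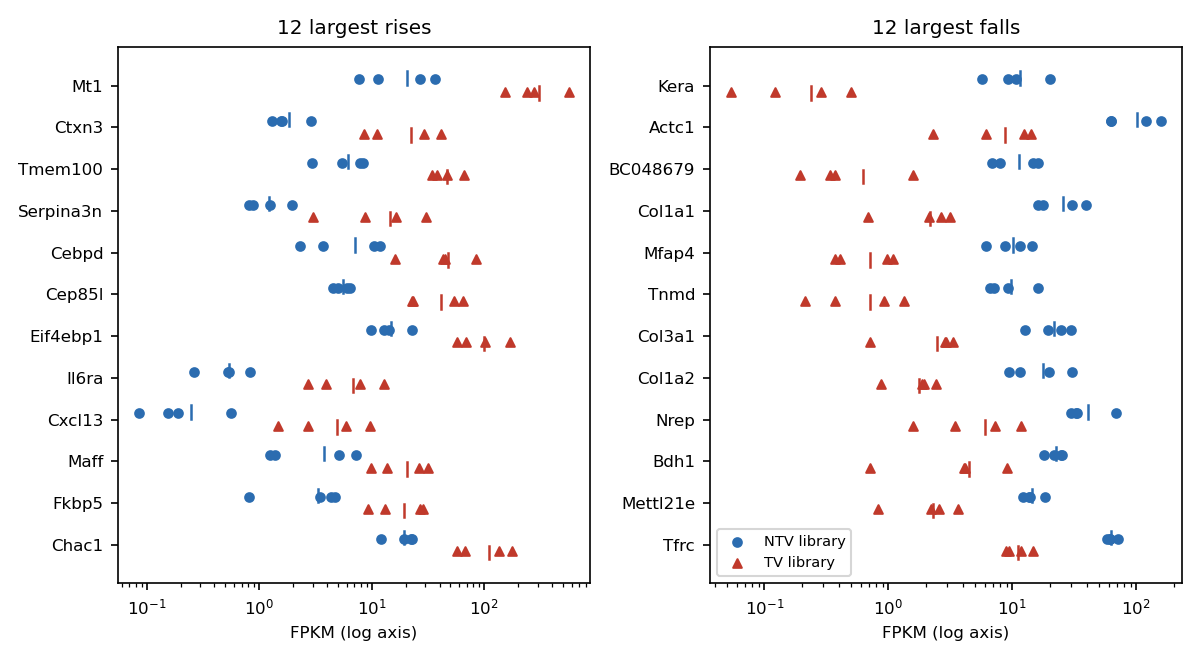
FPKM on a log axis in each library of the 12 top rises and the 12 top falls of protein-coding genes whose calls held without each library, with NTV as blue circles, TV as red triangles and short lines for group means. In each of the 24 genes the TV libraries lie wholly above or below the NTV libraries, and among the rises the TV libraries are spread most widely in Serpina3n.

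The interleukin-6 receptor and 2 related signalling genes rose. Il6ra, the receptor chain that binds interleukin-6, stood at 0.526, 0.835, 0.544 and 0.265 FPKM in NTV and 12.8, 7.8, 2.7 and 3.95 FPKM in TV. All TV libraries were above NTV, from 2.70 FPKM in replicate 6 to 12.8 FPKM in replicate 3 (2.62 ± 0.38 on the log2 scale, adjusted p = 0.00145). Stat3, the transcription factor activated by that receptor, rose from 8.13 ± 0.632 to 22.5 ± 4.23 FPKM (1.40 ± 0.17 on the log2 scale, adjusted p = 0.00094), and Osmr, the oncostatin M receptor, from 0.989 ± 0.193 to 2.1 ± 0.702 FPKM (0.77 ± 0.20). Of the 19 tested members of the IL-6, JAK and STAT list 5 rose and 1 fell (3 rose without NTV replicate 5 or 6 or without TV replicate 4, and under 2 of the other scalings). Together 31.6% of that list was called, against 25.8% of all genes. Of 19 TNF receptor and NF-kB genes 3 rose (15.8%, near the 14.0% of all genes) and 0 fell. The 3 included Map3k14, the kinase NIK (0.88 ± 0.22), and Nfkbib, an inhibitor of NF-kB (0.73 ± 0.13). Medians of both lists were 0.07.

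Among BMP, activin and myostatin genes 6 of 26 rose and 3 fell (median 0.08), with 3 rises without NTV replicate 6 or without TV replicate 3, and 1 fall without NTV replicate 6 or without TV replicate 4. Called in either direction were 34.6% of them, against 25.8% of all genes. Acvr1b, the activin receptor ALK4, rose from 15 ± 4.07 to 31.7 ± 5.24 FPKM (1.08 ± 0.21 on the log2 scale, adjusted p = 0.00423), and Bmpr1b, a BMP receptor, by 0.63 ± 0.15. Fstl1, a secreted follistatin-like protein, fell from 12.9 ± 3.39 to 4.48 ± 1.59 FPKM (-1.44 ± 0.30 on the log2 scale, adjusted p = 0.00594). Mstn, which encodes myostatin, stood at 41.6, 36.3, 32.1 and 24.8 FPKM in NTV and 39.5, 29.1, 60.7 and 34.2 FPKM in TV. Its groups overlapped, and no difference was called (adjusted p = 0.525). In the Notch list 2 of 17 rose and 4 fell (median -0.13), together 35.3% against 25.8% of all genes. Heyl, a Notch target, fell by 0.83 ± 0.18, Adam17, a protease that sheds Notch and TNF, by 0.77 ± 0.11, and Numb, a Notch inhibitor, by 0.49 ± 0.09.

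Glucocorticoid targets rose together: 14 of 19 tested members were called higher and 0 lower, with a median log2 change of 1.31 against 0.01 for all genes (Mt1 and Mt2 are on this list). The count was 8 without TV replicate 3 and 9 without NTV replicate 2 or 6. Other members count again below: Klf9 and Klf15 as Krüppel-like factors, Per1 as a clock gene, and Sesn1 and Ddit4 as brakes on protein synthesis. So do Glul among the amino acid enzymes and Cdkn1a among the cell cycle genes. Fkbp5, a co-chaperone of the receptor and one of its most direct targets, stood at 3.48, 4.73, 4.34 and 0.807 FPKM in NTV and 28.6, 27, 9.34 and 13 FPKM in TV. The lowest TV value was above the highest NTV value (2.41 ± 0.47 on the log2 scale, adjusted p = 0.00476). Glul, glutamine synthetase, stood at 71.5, 104, 99.5 and 68.5 FPKM in NTV and 413, 344, 217 and 242 FPKM in TV, with TV at least 2 times the highest NTV value (1.79 ± 0.24 on the log2 scale, adjusted p = 0.00121). Cebpd, a C/EBP factor, rose by 2.70 ± 0.69 (adjusted p = 0.0152). Trim63, which encodes the ubiquitin ligase MuRF1, is controlled by both this receptor and FoxO and was the largest rise among genes of at least 200 FPKM. It stood at 72.2, 118, 58.1 and 70.4 FPKM in NTV and 815, 425, 196 and 185 FPKM in TV, highest in replicate 3 and nearest to NTV in replicates 6 and 8 (2.12 ± 0.56 on the log2 scale, adjusted p = 0.0181). Foxo1 stood at 2.77, 2.89, 3.38 and 2.53 FPKM in NTV and 12.3, 6.81, 3.49 and 12.7 FPKM in TV. TV replicate 6 hardly exceeded NTV (1.31 ± 0.40 on the log2 scale, adjusted p = 0.034), and the call ended without any single library other than TV replicate 6 (adjusted p up to 0.092) and with no filter on low values (0.0724).

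Krüppel-like factors, zinc-finger regulators of metabolism and stress, rose in 7 of 13 and fell in 0, with a median of 0.78. The rises numbered 3 without NTV replicate 6 or without TV replicate 4 and 4 without NTV replicate 2 or without TV replicate 3. Klf15, a driver of amino acid breakdown in fasting, went up from 20.2 ± 5.0 to 37.4 ± 6.62 FPKM (0.89 ± 0.22 on the log2 scale, adjusted p = 0.0146), and Klf9 from 52.9 ± 12.2 to 90.9 ± 12.8 FPKM (0.79 ± 0.18). By the authors' transcription factor families, bZIP genes had 12 rises and 1 fall among 38 (median 0.36). The 331 C2H2 zinc-finger genes had 51 rises and 16 falls (median 0.07), together 20.2% against 25.8% of all genes. The 46 bHLH genes had 11 rises and 4 falls.

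Clock genes had 9 rises and 0 falls among 21 tested, and their median was 0.49. Cry2, a repressor of the clock activators, stood at 3.62, 3.94, 5.91 and 5.85 FPKM in NTV and 22.2, 18.7, 9.11 and 13.7 FPKM in TV. All TV libraries were above NTV (1.58 ± 0.24 on the log2 scale, adjusted p = 0.0016). Ciart stood at 0.436, 1.56, 4.34 and 3.38 FPKM in NTV and 6.21, 6.26, 6.61 and 8.7 FPKM in TV, with TV values close to each other and NTV values spread widely (1.59 ± 0.42 on the log2 scale, adjusted p = 0.0172). Rora, a nuclear receptor that activates clock genes, rose from 7.77 ± 0.791 to 18.8 ± 5.88 FPKM (1.18 ± 0.20). Sampling times are not given in the labels used here, and their part in these values was not tested.

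**Figure D3:**
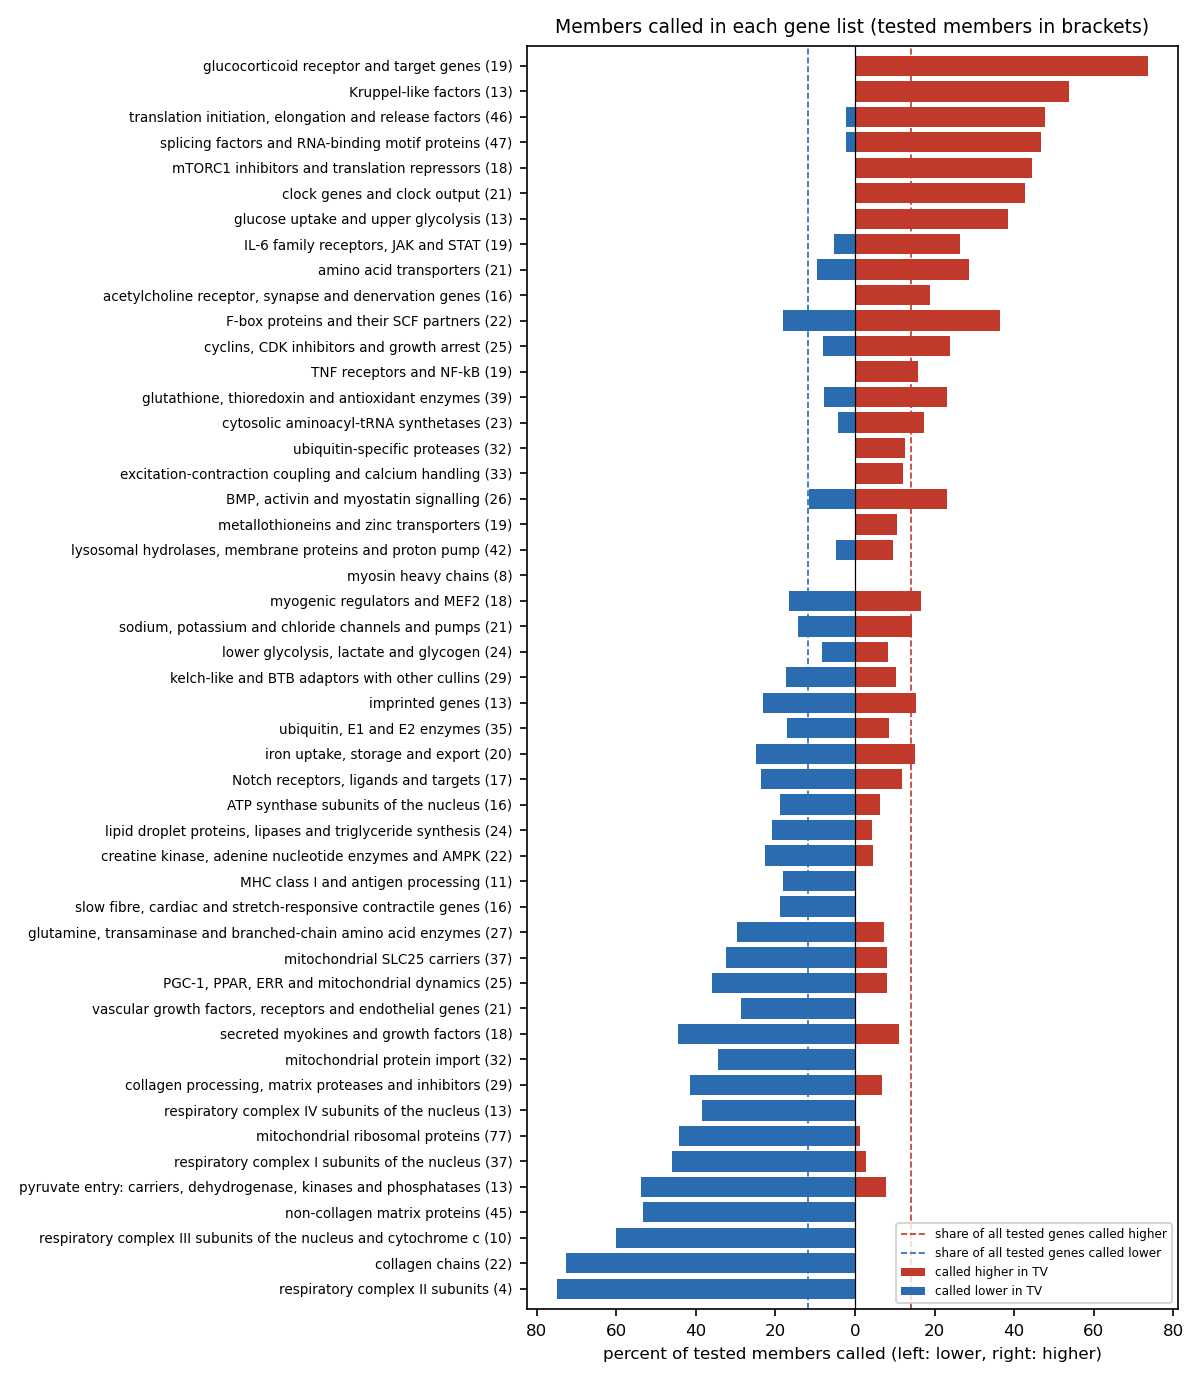
Bars give the percent of tested members called higher (red, right) and lower (blue, left) in TV for 49 gene lists, with the number tested in brackets. Dashed lines mark the shares of all tested genes, 14.0% higher and 11.7% lower; glucocorticoid targets stand at the top and respiratory complexes II and III, collagens and other matrix proteins at the bottom.

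Amino acid handling changed at the membrane and in the cytosol. Slc7a2, a carrier of arginine and lysine, stood at 8.47, 9.69, 10.4 and 15 FPKM in NTV and 85.8, 67.4, 21.3 and 21.7 FPKM in TV. Replicates 3 and 4 were far above NTV and replicates 6 and 8 moderately above (1.88 ± 0.42 on the log2 scale, adjusted p = 0.00857). Slc43a1, an efflux carrier of branched-chain amino acids, rose from 2.53 ± 0.426 to 9.59 ± 2.44 FPKM (1.71 ± 0.17 on the log2 scale, adjusted p = 0.000429). Slc38a2, which imports glutamine and alanine, rose by 1.18 ± 0.30, and Slc7a6, an exchanger for basic amino acids, by 0.86 ± 0.16. In all, 6 of 21 amino acid transporters rose and 2 fell (median 0.32).

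The 2 alanine transaminases went opposite ways. Gpt, the cytosolic form, stood at 16.9, 18.4, 19.6 and 18.1 FPKM in NTV and 4.16, 7.4, 6.91 and 10.5 FPKM in TV, with no overlap (-1.34 ± 0.29 on the log2 scale, adjusted p = 0.00686). Gpt2, the mitochondrial form, stood at 21.2, 40.2, 38.2 and 24.1 FPKM in NTV and 80.5, 90.2, 61.4 and 70.1 FPKM in TV, again with no overlap (1.31 ± 0.20 on the log2 scale, adjusted p = 0.00171). Got1, cytosolic aspartate transaminase, fell from 246 ± 18.9 to 133 ± 32.4 FPKM (-0.92 ± 0.21). Of 27 glutamine, transaminase and branched-chain enzymes 2 rose, Glul and Gpt2, and 8 fell, and the median was -0.23.

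Brakes on protein synthesis and the synthesis machinery rose side by side. Eif4ebp1, which holds back cap-dependent translation, stood at 9.78, 22.6, 12.9 and 14.1 FPKM in NTV and 170.4, 102, 57.5 and 69.3 FPKM in TV. Every TV value was over 2 times the highest NTV value (2.64 ± 0.35 on the log2 scale, adjusted p = 0.00122). Sesn1, a sestrin that senses leucine and inhibits mTORC1, rose from 14.3 ± 2.48 to 42.5 ± 18.6 FPKM (1.45 ± 0.26 on the log2 scale, adjusted p = 0.00327). Eef2k, the kinase that stops elongation factor 2, rose by 0.90 ± 0.15, and Tsc1, a subunit of the mTORC1-inhibiting TSC complex, by 0.78 ± 0.15. Ddit4, the stress protein REDD1, had the largest log2 change of these, 3.22 ± 0.95, but its call ended without some single libraries (adjusted p up to 0.0796), and it is named after its values were seen. Of 18 such brakes 8 rose and 0 fell, while the median of the list, 0.08, was near that of all genes.

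Of 46 translation factors 22 rose and 1 fell, with a median of 0.33; with an equal total per library 14 rose. Eef2, the elongation factor that Eef2k inactivates, stood at 413, 555, 449.7 and 457 FPKM in NTV and 836, 749, 799 and 842 FPKM in TV. The groups did not overlap and TV was tight (0.79 ± 0.13 on the log2 scale, adjusted p = 0.00216). Eif4g3, a scaffold of the cap complex, rose by 1.04 ± 0.17, Eif3f, a subunit of eIF3 known as a target of atrogin-1, by 0.88 ± 0.14, and Eif4b, a helicase cofactor, by 0.75 ± 0.12. Of 23 cytosolic tRNA synthetases, 21.7% called against 25.8% of all genes, 4 rose and 1 fell (median 0.12). The rises included Vars (0.63 ± 0.13) and Kars (0.62 ± 0.10). The count of rises was 2 without NTV replicate 2 or without TV replicate 3 or 4 and with an equal total.

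Splicing factors and RNA-binding proteins moved likewise, with 22 of 47 higher, 1 lower and a median of 0.28. The count was 14 without NTV replicate 6 or without TV replicate 3, 13 with an equal total and 14 when that total left out mitochondrial and the 50 most abundant genes. Rbm3 and Cirbp, RNA-binding proteins best known for their induction by mild cold, were among the largest. Rbm3 stood at 7.01, 6.64, 7.94 and 6.23 FPKM in NTV and 28.7, 31.7, 23.4 and 22.1 FPKM in TV. Cirbp stood at 9.63, 9.59, 9.93 and 9.91 FPKM in NTV and 25.4, 30.1, 22.1 and 19.9 FPKM in TV, with NTV nearly constant. In both, TV was more than 2 times NTV throughout (1.85 ± 0.19 on the log2 scale, adjusted p = 0.000514 for Rbm3, and 1.26 ± 0.19 on the log2 scale, adjusted p = 0.00152 for Cirbp). Clk1, a kinase of splicing factors, rose by 1.26 ± 0.20, and Rbm20, which sets titin splicing, by 0.97 ± 0.22.

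The breakdown machinery changed gene by gene. Fbxo32, the F-box protein atrogin-1 of wasting muscle, stood at 47, 54.5, 38.5 and 46.2 FPKM in NTV and 278, 277, 121 and 72.7 FPKM in TV. TV replicates 3 and 4 were far above NTV, and replicate 8 was the nearest to it (1.79 ± 0.54 on the log2 scale, adjusted p = 0.0315). It missed the threshold once any NTV library, or TV replicate 3 or 4, was dropped (adjusted p up to 0.0868) and with no filter (0.0676). Of 22 F-box and SCF genes 8 rose and 4 fell (median 0.18); 3 rose without TV replicate 3 or 4 and 4 without NTV replicate 3, 5 or 6, and 2 fell without NTV replicate 6 and with an equal total per library. Fbxo31, which targets cyclin D1, rose from 32.3 ± 7.06 to 64.8 ± 13.3 FPKM (0.99 ± 0.19 on the log2 scale, adjusted p = 0.00454). Cul1, the scaffold of these ligases, rose by 0.56 ± 0.10. Fbxl22, an F-box protein of the Z-disc, fell from 2.13 ± 0.549 to 0.539 ± 0.272 FPKM (-1.35 ± 0.21 on the log2 scale, adjusted p = 0.00178), and Fbxw7, which targets MYC and other growth regulators, by 0.60 ± 0.15.

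Ubiquitin itself rose: Ubb stood at 218, 223, 191 and 249.9 FPKM in NTV and 460.3, 406, 319 and 458 FPKM in TV, without overlap (0.89 ± 0.15 on the log2 scale, adjusted p = 0.00234). Ube2j1, a conjugating enzyme of the endoplasmic reticulum, rose by 0.77 ± 0.16. Ube2n, which builds lysine-63 chains, fell from 15.4 ± 1.41 to 9.47 ± 0.957 FPKM (-0.67 ± 0.09 on the log2 scale, adjusted p = 0.00122), and of 35 ubiquitin, E1 and E2 genes 3 rose and 6 fell (median -0.02), with 3 falls when libraries had an equal total. Of 32 ubiquitin-specific proteases 4 rose and 0 fell (median 0.07), including Usp36, a nucleolar enzyme (0.55 ± 0.13), Usp16 (0.53 ± 0.10) and Usp7, which stabilises MDM2 and p53 (0.37 ± 0.09). The rises numbered 7 without TV replicate 8 and 2 under both equal-total scalings, where Usp7 lost its call. Among 29 kelch and BTB adaptors 3 rose and 5 fell (median 0.07); the falls numbered 3 without NTV replicate 2 or 6 or without TV replicate 3 and 2 with an equal total, and the rises 7 without TV replicate 8. Kbtbd13, a muscle adaptor tied to nemaline myopathy, fell from 14.7 ± 2.92 to 5.8 ± 2.0 FPKM (-1.30 ± 0.24 on the log2 scale, adjusted p = 0.0036) and Klhl23 by 0.94 ± 0.24, whereas Klhl21 rose by 0.79 ± 0.14. Ctsl, the lysosomal protease cathepsin L, rose from 21.8 ± 2.13 to 48 ± 6.87 FPKM (1.12 ± 0.14 on the log2 scale, adjusted p = 0.00094), Gaa, acid alpha-glucosidase, by 0.65 ± 0.15, and Lamp2, a lysosomal membrane protein, by 0.58 ± 0.13. Only 4 of 42 lysosomal genes rose and 2 fell (median 0.05), with 7 rises without TV replicate 8 and 0 falls without 5 of the 8 libraries, each left out alone. Called in either direction were 25.7% of the ubiquitin, E1 and E2 genes and 27.6% of the adaptors, near the 25.8% of all genes. For the proteases the share was 12.5% and for the lysosomal genes 14.3%.

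Many nuclear genes of the mitochondrion fell, from respiratory subunits to import. In complex I 17 of 37 subunits fell and 1 rose, with a median of -0.42; the falls numbered 9 without NTV replicate 3 or without TV replicate 3 and 11 without NTV replicate 2 or 6. Ndufs1, its largest subunit, stood at 58.4, 63.8, 54.5 and 63.8 FPKM in NTV and 23.7, 35.3, 35.4 and 32.1 FPKM in TV, without overlap (-0.93 ± 0.16 on the log2 scale, adjusted p = 0.00288). Ndufc1, Ndufab1 and Ndufs8 fell as well (-0.78 ± 0.18, -0.90 ± 0.15 and -0.84 ± 0.18). In complex II 3 of 4 fell (median -0.67), with Sdhd at 0.68 ± 0.13 and Sdhc at 0.67 ± 0.15 lower on the log2 scale. In complex III with cytochrome c 6 of 10 fell (median -0.63). Cycs, cytochrome c, stood at 109.7, 124, 108 and 121 FPKM in NTV and 47.7, 58.7, 61.3 and 60.5 FPKM in TV, again without overlap (-1.02 ± 0.14 on the log2 scale, adjusted p = 0.00132). Uqcrfs1, the iron-sulphur protein, fell too (-0.73 ± 0.17), as did Uqcrc2 (-0.84 ± 0.16) and Cyc1, cytochrome c1 (-0.84 ± 0.17). In complex IV 5 of 13 fell (median -0.35; 2 without NTV replicate 2, 3 or 6 or without TV replicate 3 or 4, and 3 without TV replicate 6), among them Cox5a (-0.73 ± 0.16) and Cox5b (-0.59 ± 0.15). Of 16 nuclear ATP synthase subunits 3 fell and 1 rose (median -0.40), and the 3 were Atp5g3 (-0.91 ± 0.20), Atp5j (-0.63 ± 0.16) and Atp5f1 (-0.55 ± 0.14). Of the same 16, 6 to 9 fell under the other scalings and 8 without TV replicate 8.

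Of the 13 protein-coding genes of the mitochondrial genome itself 5 fell and 0 rose. The largest fall there was that of mt-Atp6, a proton-channel subunit of ATP synthase, which stood at 1579.7, 848, 795 and 1105 FPKM in NTV and 269.6, 289, 185 and 279 FPKM in TV. TV stayed under every NTV library (-2.05 ± 0.21 on the log2 scale, adjusted p = 0.000537), though its gene overlaps mt-Atp8 and borders mt-Co3. All mitochondrial genes together took 11.6% to 13.5% of reads in NTV and 5.08% to 7.70% in TV. Fewer mitochondria and less RNA per mitochondrion cannot be told apart in whole tissue, and neither can fewer cells of a type and less RNA per cell.

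Of 77 mitochondrial ribosomal proteins 34 fell and 1 rose, with a median of -0.28. The falls numbered 19 without NTV replicate 3 or 6, 20 without TV replicate 3, and 22 to 46 over the other scalings. Mrpl34 stood at 75.8, 84.3, 64.9 and 83.5 FPKM in NTV and 32.6, 41.7, 38.6 and 41.7 FPKM in TV, in groups far apart (-0.99 ± 0.12 on the log2 scale, adjusted p = 0.000874). Mrpl19, Mrpl45 and Mrpl12 fell as well (-0.94 ± 0.11, -0.78 ± 0.13 and -0.77 ± 0.09). Of 32 import genes 11 fell and 0 rose (median -0.17), led by Timm8a1 (-0.93 ± 0.16), Tomm5 (-0.82 ± 0.10), Timm22 (-0.75 ± 0.10) and Timm10 (-0.77 ± 0.15), parts of the inner and outer membrane machinery. Of 37 SLC25 carriers 12 fell and 3 rose (median -0.30), with 5 rises without NTV replicate 3. Slc25a20, which carries acylcarnitines, fell from 16.4 ± 1.3 to 8.82 ± 1.66 FPKM (-0.87 ± 0.21 on the log2 scale, adjusted p = 0.0121).

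Several regulators of respiratory genes fell. Esrra, the oestrogen-related receptor that with PGC-1 activates respiratory genes, stood at 54.6, 55.6, 49.4 and 50.7 FPKM in NTV and 21.9, 29.2, 28.9 and 30.7 FPKM in TV, without overlap (-0.92 ± 0.15 on the log2 scale, adjusted p = 0.00225). Esrrb and Ppargc1b, the coactivator PGC-1 beta, fell by 0.99 ± 0.24 and 0.98 ± 0.19. Perm1, a muscle protein induced by PGC-1, fell from 57.4 ± 2.74 to 27.6 ± 3.34 FPKM (-1.05 ± 0.20 on the log2 scale, adjusted p = 0.00385). In this list 9 of 25 fell and 2 rose, its median was 0.00, and 14 were not called.

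Genes of pyruvate entry fell, and some of glucose uptake rose. Dlat, the E2 core of pyruvate dehydrogenase, stood at 56.4, 56.7, 58.5 and 60.1 FPKM in NTV and 22.1, 31.2, 34.5 and 25.2 FPKM in TV, with NTV nearly constant and TV wholly below it (-1.04 ± 0.17 on the log2 scale, adjusted p = 0.00243). Pdhx, Pdhb and Dld, other subunits, fell by 0.79 ± 0.14, 0.70 ± 0.14 and 0.60 ± 0.13. Of 13 pyruvate entry genes 7 fell and 1 rose (median -0.60, and 4 fell without TV replicate 3). Pdk4, the kinase that shuts the complex off, stood at 34.7, 154, 239 and 203 FPKM in NTV and 450.4, 762, 56.9 and 109 FPKM in TV. Its values spread widely and overlapped (adjusted p = 0.537). Pfkfb3, which makes the activator of phosphofructokinase, stood at 28.1, 33.1, 54.6 and 58.2 FPKM in NTV and 126, 153, 155 and 104 FPKM in TV, all TV values above NTV (1.67 ± 0.41 on the log2 scale, adjusted p = 0.0127). Slc2a3, the glucose transporter GLUT3, rose from 0.419 ± 0.13 to 2.09 ± 0.889 FPKM (1.45 ± 0.25 on the log2 scale, adjusted p = 0.00263), and Gpi1, phosphoglucose isomerase, by 0.70 ± 0.13. In upper glycolysis 5 of 13 rose and 0 fell (median -0.08, and 3 rose without TV replicate 3). Ldhb, the heart form of lactate dehydrogenase, fell from 290.2 ± 45 to 128 ± 45.6 FPKM (-1.26 ± 0.30 on the log2 scale, adjusted p = 0.0119), while Gyg, the primer of glycogen, rose by 0.71 ± 0.16, and in lower glycolysis 2 of 24 rose and 2 fell (median -0.13). Called were 38.5% of upper and 16.7% of lower glycolysis genes, against 25.8% of all genes.

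**Figure D4:**
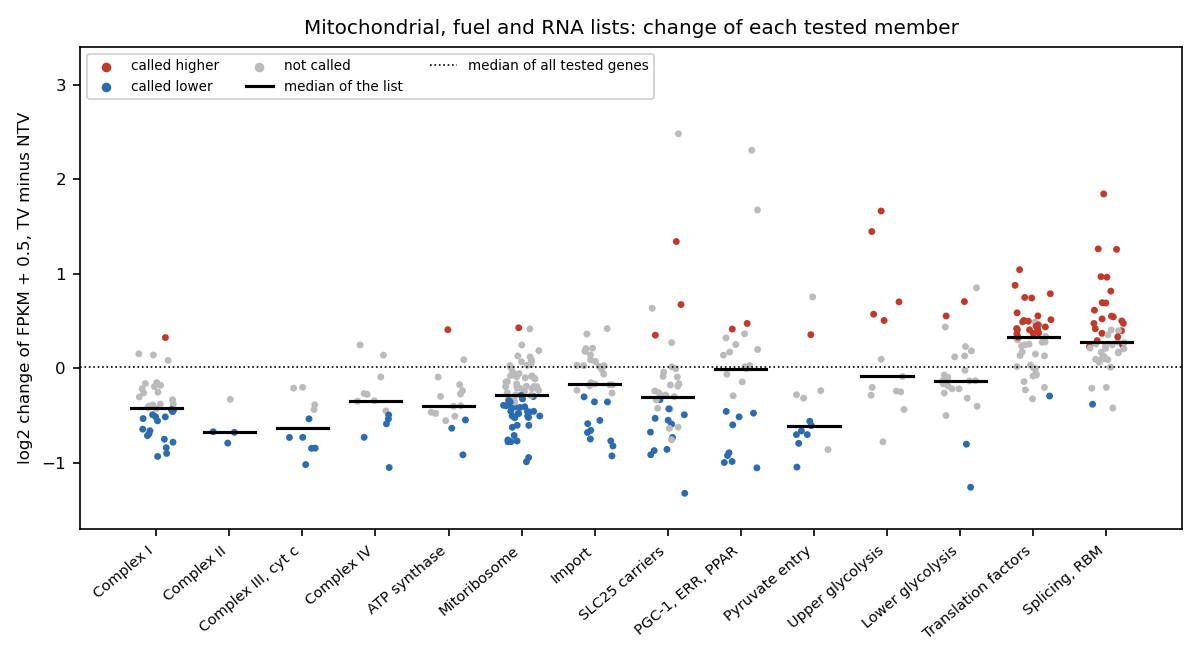
Log2 change (TV minus NTV) of each tested member of 14 lists, coloured by call, with a bar at each list's median and a dotted line at the median of all genes. Mitochondrial lists lie mostly below the line, with medians from -0.67 in complex II to 0.00 in the PGC-1 list, and translation and splicing lists above it at 0.33 and 0.28.

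Several genes of energy buffering and fatty acid supply fell. Ckmt2, the mitochondrial creatine kinase of muscle, stood at 1490.2, 1752, 1388 and 1754 FPKM in NTV and 302, 431, 359 and 432 FPKM in TV, the groups far apart (-2.07 ± 0.37 on the log2 scale, adjusted p = 0.00302). Ak4, a mitochondrial adenylate kinase, fell from 6.31 ± 1.41 to 1.53 ± 0.804 FPKM (-1.82 ± 0.35 on the log2 scale, adjusted p = 0.00448), Ak3 by 0.49 ± 0.12, and Stk11, the kinase LKB1 that activates AMPK, rose by 0.58 ± 0.10. Of 22 creatine, adenine nucleotide and AMPK genes 5 fell and 1 rose (median -0.17), together 27.3% against 25.8% of all genes. The falls numbered 9 without TV replicate 6. Fabp3, the fatty acid binding protein of oxidative muscle, stood at 682, 952, 731 and 770.0 FPKM in NTV and 191, 172, 98.2 and 239 FPKM in TV, without overlap (-2.22 ± 0.31 on the log2 scale, adjusted p = 0.00134). Mdh1, cytosolic malate dehydrogenase, fell from 345 ± 30.6 to 145 ± 27.4 FPKM (-1.26 ± 0.22).

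Of 24 lipid droplet genes 5 fell and 1 rose (median -0.34, and 3 fell without NTV replicate 2 or 6 or without TV replicate 3). Together 25% of the list was called, near the 25.8% of all genes. Pnpla3, a droplet lipase-family protein, stood at 10.2, 8.94, 10.6 and 4.29 FPKM in NTV and 0.53, 1.01, 4.21 and 2.47 FPKM in TV, without overlap though TV replicate 6 came close to NTV (-1.99 ± 0.43 on the log2 scale, adjusted p = 0.00708). Fitm2, which buds droplets from the endoplasmic reticulum, fell from 44.7 ± 1.11 to 29.9 ± 3.64 FPKM (-0.58 ± 0.12 on the log2 scale, adjusted p = 0.00637). Plin5, which tethers droplets to mitochondria in oxidative tissue, fell from 18.6 ± 2.88 to 6.54 ± 2.81 FPKM (-1.54 ± 0.37 on the log2 scale, adjusted p = 0.0117). Plin4, a perilipin of adipocytes and muscle, was the member that rose, from 59.3 ± 21.4 to 162 ± 63.9 FPKM, with TV replicate 6 just under the highest NTV value (1.42 ± 0.34 on the log2 scale, adjusted p = 0.0121). Of the 7 adipocyte markers tested 0 were called, and the summed level of that list was 91.8 to 258.3 FPKM in NTV and 157.7 to 727.3 FPKM in TV. Its part in the change of Plin4 was not tested.

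Iron genes changed in both directions beside the fall of Tfrc. Slc25a28, mitoferrin 2, which brings iron into mitochondria, rose. It stood at 15.1, 15.8, 14.9 and 15.3 FPKM in NTV and 45.6, 44.1, 32.1 and 37.6 FPKM in TV, with NTV nearly constant and TV wholly above it (1.34 ± 0.13 on the log2 scale, adjusted p = 0.000429). Steap3, which reduces iron from transferrin, fell from 6.26 ± 0.421 to 3.33 ± 1.11 FPKM (-0.86 ± 0.22 on the log2 scale, adjusted p = 0.0157). Fth1, ferritin heavy chain that stores iron, rose from 1333 ± 168 to 2037 ± 78.1 FPKM (0.62 ± 0.14 on the log2 scale, adjusted p = 0.00827). Fth1 lost its call with no filter on low values (adjusted p = 0.124). Slc25a39, a mitochondrial carrier of glutathione, fell by 0.91 ± 0.15. Of 20 iron genes 3 rose and 5 fell (median -0.18, and 3 fell without NTV replicate 5 or 6 or without TV replicate 3 or 4, or with an equal total). Called in either direction were 40% of them, against 25.8% of all genes.

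Antioxidant genes rose in 9 of 39 and fell in 3 (median 0.18), together 30.8% against 25.8% of all genes, with falls in 4 to 9 under other scalings. Nfe2l2, the factor NRF2 that drives many of them, stood at 9.13, 13.6, 12.2 and 11.8 FPKM in NTV and 54.2, 29.5, 17.3 and 44.2 FPKM in TV, without overlap (1.49 ± 0.29 on the log2 scale, adjusted p = 0.00454). Keap1, which marks NRF2 for degradation, rose as well (0.60 ± 0.11). Gpx3, secreted glutathione peroxidase, rose from 92.2 ± 7.68 to 196 ± 47.6 FPKM (1.06 ± 0.16 on the log2 scale, adjusted p = 0.00152), Mgst3, a membrane glutathione transferase, by 1.03 ± 0.21, and Gclc, which starts glutathione synthesis, by 0.82 ± 0.19.

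A few abundant muscle genes rose, while 0 of 8 myosin heavy chains and 0 of 8 fibre markers were called by limma in either direction. Mylk2, the light chain kinase of skeletal muscle, stood at 183, 308, 224 and 217 FPKM in NTV and 843, 763, 708 and 682 FPKM in TV, without overlap (1.70 ± 0.17 on the log2 scale, adjusted p = 0.000514). Actn3, the Z-disc actinin of fast fibres, rose from 1981 ± 248 to 4869 ± 821 FPKM (1.29 ± 0.19 on the log2 scale, adjusted p = 0.00161). Ybx3, a cold-shock domain protein that binds mRNA, rose from 393 ± 69.7 to 1007 ± 74.5 FPKM (1.37 ± 0.19 on the log2 scale, adjusted p = 0.00126). Among the myosin heavy chains Myh4, the fastest isoform, stood at 4814, 4421, 5023 and 6198 FPKM in NTV and 5214, 6659.7, 9706 and 6810.1 FPKM in TV and Myh1 at 479, 766, 482 and 633 FPKM in NTV and 449, 1154, 836 and 811 FPKM in TV, both with overlapping groups (adjusted p = 0.15 and 0.371). Myh2, the fast oxidative isoform, whose TV values all lay under NTV, had an adjusted p of 0.0556, and 0.0403 with only the 8 libraries in the fit. Mb, myoglobin, fell from 2047 ± 282 to 668 ± 121 FPKM (-1.62 ± 0.40 on the log2 scale, adjusted p = 0.0133), and with Actc1 and Fabp3 it made up the 3 falls among 16 slow and cardiac genes, of which 0 rose. These 3 are 18.75% of the list, against 25.8% called and 11.7% called lower among all genes.

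Genes of calcium handling and of the neuromuscular junction were called less often than all genes, and channels and pumps about as often. Atp2a1, the fast calcium pump SERCA1, stood at 5757, 6736, 5945 and 6524 FPKM in NTV and 9345, 12569.8, 13542 and 12969 FPKM in TV, without overlap (0.94 ± 0.19 on the log2 scale, adjusted p = 0.00475), but was not called without a filter (adjusted p = 0.458). Cacng1, a subunit of the voltage sensor, rose by 1.14 ± 0.27, and Ryr1, the calcium release channel, by 0.59 ± 0.14. Of 33 calcium handling genes 4 rose (12.1%, against 14.0% of all genes) and 0 fell (against 11.7% of all genes), with a median of -0.09. Under the other scalings 3 or 4 rose and 1 to 8 fell, and 5 fell without TV replicate 8. Kcng4, a modifier of potassium channels, fell from 10.6 ± 2.36 to 2.47 ± 1.13 FPKM (-1.95 ± 0.34 on the log2 scale, adjusted p = 0.00288), while Abcc9, a subunit of ATP-sensitive potassium channels, rose by 0.37 ± 0.10 and Trpm7, a magnesium channel, by 0.89 ± 0.21. Among 21 channels and pumps 3 rose and 3 fell (median -0.07), together 28.6% against 25.8% of all genes, and Abcc9 lost its call under 3 of the other scalings. Of 16 neuromuscular genes 3 rose and 0 fell (median -0.02), together 18.75% against 25.8% of all genes, and 1 rose without NTV replicate 2 or 6. Chrnb1, an acetylcholine receptor subunit, rose from 21.2 ± 1.1 to 37.2 ± 4.4 FPKM (0.79 ± 0.20 on the log2 scale, adjusted p = 0.0131). Rapsn, which clusters these receptors, was at the threshold (adjusted p = 0.0499) and lost its call under most alternatives.

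Among 18 myogenic genes 3 rose and 3 fell (median -0.02), with 1 rise without NTV replicate 6 and under both equal-total scalings. Together 33.3% were called, against 25.8% of all genes. Mamstr, a coactivator of MEF2 and of SRF, stood at 8.76, 6.42, 6.45 and 9.88 FPKM in NTV and 1.14, 1.61, 4.3 and 2.48 FPKM in TV, without overlap (-1.64 ± 0.28 on the log2 scale, adjusted p = 0.0026). Mkl1, an actin-sensing SRF coactivator, fell from 6.36 ± 0.552 to 2.56 ± 1.58 FPKM (-1.31 ± 0.29 on the log2 scale, adjusted p = 0.0083). Myf6, the factor MRF4 of mature fibres, rose from 63.6 ± 9.09 to 143 ± 53.6 FPKM (1.09 ± 0.28 on the log2 scale, adjusted p = 0.0146). Cell cycle genes moved in both directions. Ccnd1, cyclin D1, stood at 2.08, 1.76, 3.27 and 1.95 FPKM in NTV and 0.366, 0.178, 0.279 and 0.367 FPKM in TV, far apart (-1.77 ± 0.18 on the log2 scale, adjusted p = 0.000514), and Cdkn1b, the inhibitor p27, rose from 12.4 ± 1.25 to 19.9 ± 1.17 FPKM (0.67 ± 0.09 on the log2 scale, adjusted p = 0.00121). Ccng1, cyclin G1, fell by 0.61 ± 0.15. Of the 25 genes of that list 6 rose and 2 fell (median 0.22), and the rises numbered 1 without NTV replicate 2 or without TV replicate 3, 2 without TV replicate 4 or 6 and 3 without TV replicate 8. The share of that list called in either direction was 32%.

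Collagens fell broadly: 16 of 22 tested chains fell and 0 rose, with a median of -1.16. Another 22 of 44 listed chains were below the level needed for testing, so these are not all collagens. Col1a1, a chain of type I collagen, stood at 17.7, 16.1, 30.5 and 39.1 FPKM in NTV and 2.11, 0.691, 2.67 and 3.16 FPKM in TV, without overlap (-3.33 ± 0.40 on the log2 scale, adjusted p = 0.000874). Col3a1 and Col1a2 fell by 2.97 ± 0.40 and 2.91 ± 0.37, and Col6a2, of the type VI collagen around fibres, by 1.78 ± 0.28. Of 29 collagen-processing and matrix protease genes 12 fell and 2 rose (median -0.53), including Ctsk, cathepsin K (-1.52 ± 0.32), Loxl2, which cross-links collagen (-1.16 ± 0.20), Pcolce, which enhances procollagen cleavage (-1.13 ± 0.25), and Mmp2, a gelatinase (-1.11 ± 0.20). The other matrix genes gave 24 falls and 0 rises among 45 tested (median -0.71). Mfap4, a microfibril protein, stood at 8.78, 6.14, 11.6 and 14.3 FPKM in NTV and 0.982, 0.408, 0.373 and 1.09 FPKM in TV, without overlap (-3.13 ± 0.32 on the log2 scale, adjusted p = 0.000514). Fmod, which spaces collagen fibrils, fell from 33.8 ± 9.51 to 6.1 ± 2.99 FPKM (-2.46 ± 0.54 on the log2 scale, adjusted p = 0.00785), and Chad, chondroadherin, by 2.35 ± 0.44.

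Some markers of the cells that make this matrix fell too, but part of these markers are matrix genes already counted above. Comp, Fmod, Kera and Thbs4 of the tendon markers, and Dcn and Lum of the fibro-adipogenic progenitor markers, stand also in the list of other matrix genes. Of 6 tested tendon cell markers 5 fell, with a summed level of all 7 between 63.9 and 119.6 FPKM in NTV and between 17.4 and 42.3 FPKM in TV. Tnmd, tenomodulin, was at 6.56, 7.18, 9.19 and 16 FPKM in NTV and 0.212, 0.372, 0.927 and 1.33 FPKM in TV (-3.10 ± 0.43 on the log2 scale, adjusted p = 0.00132). Scx, the scleraxis factor of tendon cells, went the other way at 3.08, 7.28, 4.14 and 5.04 FPKM in NTV and 11.8, 6.66, 10.9 and 15.6 FPKM in TV. Its groups overlapped, its adjusted p was 0.0499, and the call was lost under most alternatives; it was singled out after its values were seen. Of 7 markers of fibro-adipogenic progenitors 4 fell and 0 rose (85.8 to 132.2 FPKM summed in TV, 118.0 to 152.5 FPKM in NTV). Their part, and that of the tendon markers, in the fall of the matrix genes was not tested. Macrophage markers summed to 20.4 to 52.9 FPKM in NTV and 22.6 to 51.3 FPKM in TV, and 0 of 6 were called.

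**Figure D5:**
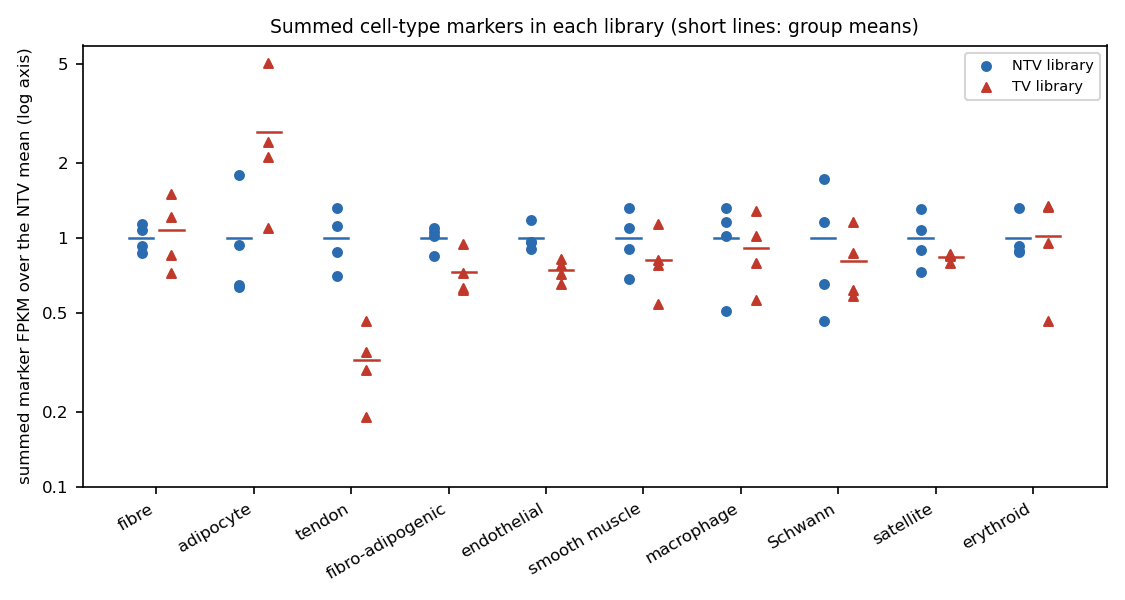
Summed FPKM of the markers of 10 cell types in each library, relative to the NTV mean on a log axis, with NTV as blue circles, TV as red triangles and short lines for group means. Tendon markers lie lower in all 4 TV libraries, adipocyte markers spread most widely among the types drawn, and fibre markers overlap between the groups.

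Vascular receptors and their ligands fell in part, with 6 falls and 0 rises among 21 tested genes (median -0.20). Aplnr, the endothelial receptor of apelin, stood at 7.03, 2.35, 4.16 and 9.44 FPKM in NTV and 0.399, 0.635, 0.646 and 0.429 FPKM in TV, without overlap (-2.46 ± 0.38 on the log2 scale, adjusted p = 0.00171). Its ligand Apln, which muscle secretes, fell from 1.55 ± 0.452 to 0.177 ± 0.108 FPKM (-1.59 ± 0.24 on the log2 scale, adjusted p = 0.0016). Kdr, the main VEGF receptor, stood at 12.5, 9.86, 11.2 and 8.09 FPKM in NTV and 3.75, 3.5, 4.44 and 2.94 FPKM in TV, without overlap (-1.39 ± 0.20 on the log2 scale, adjusted p = 0.00136), and Nrp1, its coreceptor, and Angpt1, angiopoietin 1, fell by 0.97 ± 0.18 and 0.94 ± 0.22. All 6 endothelial markers are also in that vascular list, and of these 2 fell and 0 rose. Their sums did not overlap (68.4 to 89.5 FPKM in NTV, 49.8 to 62.7 FPKM in TV). Kdr and Cdh5 were lower in every TV library, while the groups overlapped in Pecam1, Tek, Cldn5 and Vwf. The part of the markers in these falls was not tested.

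Of 18 secreted muscle factors 8 fell and 2 rose, with a median of -0.66. Ostn, osteocrin, which binds the natriuretic peptide clearance receptor, stood at 9.7, 9.47, 11.7 and 12.1 FPKM in NTV and 3.23, 3.11, 1.85 and 2.99 FPKM in TV, without overlap (-1.79 ± 0.27 on the log2 scale, adjusted p = 0.00171). Fndc5, the precursor of irisin, stood at 38.5, 50.04, 35.2 and 34.2 FPKM in NTV and 11, 17.8, 18.9 and 14.7 FPKM in TV, again apart (-1.33 ± 0.21 on the log2 scale, adjusted p = 0.00184). Nmrk2, a muscle kinase of NAD synthesis that stands in this list, fell from 43.3 ± 16.2 to 12.6 ± 1.87 FPKM (-1.66 ± 0.27 on the log2 scale, adjusted p = 0.00212). Impact, an imprinted gene whose product restrains the amino acid sensor GCN2, rose from 6.94 ± 0.411 to 19 ± 7.74 FPKM (1.30 ± 0.23 on the log2 scale, adjusted p = 0.00319), and Mest, a paternally expressed hydrolase, fell by 0.93 ± 0.18. Of 13 imprinted genes 2 rose and 3 fell (median -0.15), together 38.5% against 25.8% of all genes. The falls numbered 1 without NTV replicate 3 or without TV replicate 3 or 4. Of 11 antigen-processing genes 2 fell and 0 rose (median -0.17), the immunoproteasome subunits Psmb9 (-0.56 ± 0.14) and Psmb10 (-0.56 ± 0.14). The share called was 18.2%, against 25.8% of all genes.

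Of 692 long non-coding RNA genes tested 90 rose and 54 fell, together 20.8% against 25.8% of all genes. Gm48395 stood at 0, 0.245, 0 and 0.121 FPKM in NTV and 7.77, 9.9, 1.72 and 2.08 FPKM in TV, with 0 in 2 NTV libraries, and rose (3.01 ± 0.53 on the log2 scale, adjusted p = 0.00288). Gm45774, on chromosome 8 at 94170748 to 94173412, rose by 2.37 ± 0.37, but it lies antisense over Mt2, and reads of the 2 cannot be told apart. Gm13091, which overlaps Rere on the other strand, and Gm49417 rose by 1.82 ± 0.37 and 1.75 ± 0.38. Among the falls, 2310065F04Rik stood at 56.6, 39.6, 43.1 and 34.3 FPKM in NTV and 2.01, 5.01, 15.9 and 12.2 FPKM in TV, without overlap (-2.56 ± 0.56 on the log2 scale, adjusted p = 0.00758). It lies on the minus strand of chromosome 11 at 67112461 to 67120080, between the myosin heavy chain genes Myh3 and Myh2, which lie on the plus strand, and overlaps neither. Gm27168 fell by 3.61 ± 0.64, Foxo6os by 1.96 ± 0.37 and 0610012D04Rik by 1.88 ± 0.48. Pseudogenes were called higher more often than lower, 116 against 27 of 727, and of 81 pseudogenes of ribosomal proteins 23 rose and 0 fell. Reads of such copies may belong to their parent genes, so these calls are uncertain.

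The RET axis, the target of the drug tested elsewhere in the series, was near the lower end of detection. Ret stood at 1.15, 0.89, 1.33 and 0.791 FPKM in NTV and 0.546, 0.596, 0.398 and 0.703 FPKM in TV, each TV value under each NTV value (-0.53 ± 0.17 on the log2 scale, adjusted p = 0.0349). That call rests on 45 to 182 reads per library and was lost when NTV replicate 2 or 5, or TV replicate 3, 4 or 6, was dropped (adjusted p up to 0.0929), with no filter (0.0699) and with an equal total (0.0734). Gdnf, its ligand, stood at 0.164, 0.243, 0.229 and 0.368 FPKM in NTV and 2.04, 1.55, 1.63 and 1.02 FPKM in TV, on 11 to 183 reads per library. All TV libraries were well above NTV (1.44 ± 0.25 on the log2 scale, adjusted p = 0.00275), and the call held without each of the 8 libraries. Gfra1, the coreceptor for GDNF, stood at 0.79, 0.806, 0.859 and 0.848 FPKM in NTV and 0.367, 0.235, 0.786 and 0.698 FPKM in TV, lower in TV throughout but not called (adjusted p = 0.143). Gfral, the receptor of GDF15, had 0 reads in all 8 libraries, which allows up to 3 reads per library. Gdf15 itself was at most 0.377 FPKM and was not tested.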

How the data were processed

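RNA of gastrocnemius muscle was sequenced in 12 libraries, and the authors deposited 1 table of FPKM values and gene lengths for 54532 genes. Per the submitters' processing notes, the build was mm10 and the tools included featureCounts 1.5.0-p3, HISAT2 2.05 and DESeq2, with no role stated. The values multiplied by gene length gave whole reads for 100% of values (within 0.1 read), and the depths behind them matched median-of-ratios factors, so the deposited FPKM already held a scaling between libraries. Replicate pairs differed by more than counting noise (the smallest chi-square was 17.9 per degree of freedom), so each library counted once.

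FPKM + 0.5 was taken to log2 and fitted with limma 3.58.1 in R 4.3.3 (trend on, all 3 groups for the spread, no block), for genes with a mean of at least 0.5 FPKM over the 8 libraries. Adjusted p-values are Benjamini-Hochberg values over all genes tested in the 1 comparison. In data simulated from these libraries (12565 genes), 83 of 95 genes with 2-fold and 91 of 92 with 4-fold changes were recovered, with 18 false calls. Far fewer genes changed there than were called here. Each gene had the same spread in all groups, drawn towards the median, although TV varied more in the data. These shares therefore need not hold for the real comparison. Alternatives covered the pseudocount, filter, scaling, trend, robust fit, library weights, groups in the fit, replicate block, each library left out, and voom on the recovered reads. Only the replicate numbers 3 and 6 occur in both groups. Their deviations correlated at 0.009 and 0.13, and those of unlike numbers at -0.156 to 0.127. The numbers were therefore not taken to pair libraries, though so few shared numbers cannot settle it. Python 3.11.15 with pandas 2.3.3, numpy 2.4.6 and matplotlib 3.10.9 made tables and figures.

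Named genes are the 12 largest rises and 12 largest falls of protein-coding genes with a mean of at least 1 FPKM, the 4 and 4 of long non-coding RNAs, and the 5 and 5 of genes of at least 200 FPKM, all without overlap and with calls that held without each library. Up to 4 such called members of each of 49 gene lists were added (otherwise up to 2 of the highest level), and 12 genes by name. The members and lists were chosen with earlier results of these data known. A few genes that the rule names are not reported here. Of 196 genes named with values, 81 overlap a gene on the other strand, and counting by strand is not given in the sources used here. Promoters came from RefSeq and were matched by symbol within 1000 bases of the start of the gene.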

Additional observations from a re-analysis of the deposited data

Results flagged for a closer look

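Over the 196 named genes, each with an NTV and a TV group of 4 libraries, 18 groups (4.59%) held 1 library set apart from the other 3 by a gap, relative to the group's range, above the 95% critical value of Dixon's test. Chance alone sets apart about 1 in 20 groups of genes taken at random. The share found here cannot be compared with that, as most genes were named because their calls held without each library. Some, such as Ucp1 and Mylf-ps, were picked after their values were seen. In TV, replicate 3 stood apart in 3 groups, low in Ndufs8 (81.0 FPKM, against 107.3 to 110.2 FPKM in the others) and Cyc1 (111 FPKM) and high in Vars (15.1 FPKM). Replicate 4 of TV stood apart in 4 groups, low in Col3a1 (0.718 FPKM, against 2.89 to 3.32 FPKM) and high in BC048679 (1.57 FPKM), Slc25a20 (11.3 FPKM) and Mylf-ps (1410 FPKM, against 159 to 271 FPKM). Replicate 6 of TV was high in Eif4b (91.8 FPKM), and replicate 8 was high in Ciart (8.70 FPKM) and Psmb9 (0.512 FPKM).

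In NTV, replicate 5 was high in Myh2 (1110 FPKM, against 593 to 665 FPKM), Ucp1 (53.4 FPKM) and Ppargc1b (6.01 FPKM). Replicate 6 of NTV was high in Nrep (68.0 FPKM, against 30.02 to 33.4 FPKM) and Mylf-ps (5770 FPKM). Replicate 3 of NTV was low in Fstl1 (7.89 FPKM) and high in Eif4g3 (15.3 FPKM), and replicate 2 was low in Psmb10 (6.30 FPKM). The calls of Ndufs8, Cyc1, Col3a1, BC048679, Nrep and Fstl1 held when each of the 8 libraries was left out in turn.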

How the results depend on the processing

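Across the alternatives for pseudocount, filter, trend, robust fit, library weights and groups in the fit, the counts of 1783 higher and 1492 lower genes stayed within 1.5 times, and the counts moved further only as follows. Scaling to sums that leave out mitochondrial genes and the top 50 by level gave 1179 higher, 36.4% of calls against 54.4%, and voom on recovered reads gave 885 genes of at least 2-fold against 565 (1796 higher and 1606 lower). With a replicate block, which leaves 2 residual degrees of freedom, 0 genes were higher, 0 lower and 0 changed by at least 2-fold by limma, with 2720 at an unadjusted p under 0.05 against 5007 without the block. The replicate numbers were not taken to pair these libraries, though this was not settled. Under the block Pdk4, not called in either fit, turned from higher to lower (log2 change -0.21). Leaving out 1 library at a time gave 1202 to 1913 higher, 997 to 1557 lower and 428 to 682 of at least 2-fold. The 2-fold count was lowest without TV replicate 3. List counts of 2 in the Notch, amino acid transporter, lysosomal, PGC-1, lower glycolysis, matrix enzyme, metallothionein, imprinted, secreted factor and antigen-processing lists came to 1 or 0 under at least 1 alternative.

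Of 196 genes named with values, 184 kept direction and call in every alternative other than the block, and 12 did not. These were Mt2, Ddit4, Fbxo32, Foxo1, Ret, Rapsn, Scx, Abcc9, Usp7, Atp2a1, Fth1 and Myh2, of which Usp7 lost its call under both equal-total scalings (adjusted p = 0.07 and 0.0767). Most of the 196 were named because their calls held without each library, so keeping them there was fixed in advance. Of all 3275 called genes, 1818 held in that way. With 4 libraries a group and at least 14939830 reads each, depth limits mainly genes near 0.5 FPKM, such as Ret. Muscle weight, cell counts and sampling time are not given in the labels used here.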

Other observations

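Some values belong to genes outside the rule for named genes and were picked out after they were seen. Ighm, the heavy chain of IgM, stood at 7.76, 5.18, 15.6 and 15.5 FPKM in NTV and 0.326, 0.475, 0.887 and 0.65 FPKM in TV, with no overlap (-3.30 ± 0.39 on the log2 scale, adjusted p = 0.000874). It was the 1 tested gene among the 4 B cell markers; the other 3 were under the level for testing. Ucp1, the uncoupling protein of brown fat, stood at 53.4 FPKM in NTV replicate 5 and at no more than 1.06 FPKM in the other 7 libraries. Cidea and Elovl3, also listed as brown fat markers, were highest in that library too, at 21.1 and 2.29 FPKM. In the other 7 they stood at no more than 3.37 and 0.494 FPKM. Cpt1b, the last of the 4 listed, was at 1.04 FPKM there and highest in TV replicate 4 (1.48 FPKM). The part of brown fat in other values of NTV replicate 5 was not tested. Mylf-ps, listed as a pseudogene on chromosome 12, stood at 2496, 2644, 2366 and 5774 FPKM in NTV and 159, 1409.5, 252 and 271 FPKM in TV (-3.13 ± 0.59 on the log2 scale, adjusted p = 0.00418). Its name ties it to a myosin light chain, so its reads may be shared with a functional gene and the value is uncertain.

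Of 20 mitochondrial RNA genes that code for no protein 9 fell and 0 rose, and over all 33 tested genes of the mitochondrial chromosome the median log2 change was -0.94. Genes of 0.5 to 1 FPKM were called in 14.7% of 1886 cases and genes above 1000 FPKM in 44.1% of 34. Of 242 small RNA genes 17 rose and 2 fell, although the length range of the libraries used for counting is not given in the sources used here. Among transcription factor families, 4 of 8 GATA zinc-finger genes rose and 0 fell, and 3 of 7 of the oestrogen-receptor-like family fell and 0 rose.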
